A study of Mus musculus with 40 samples.

Results

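The 9 genes described here are Nfe2l2, which encodes the transcription factor NRF2, and 8 genes of the antioxidant programme that NRF2 is known to drive: Hmox1, Srxn1, Txnrd1, Gclm, Gclc, Slc7a11, Gsr and Nqo1. They were chosen by symbol, as 9 of the 19937 mouse genes that the arrays measured with at least 1 probe set of a single gene symbol. Each of the 9 had exactly 1 such probe set. The probe set identifiers are 10483809 for Nfe2l2, 10572897 for Hmox1, 10477061 for Srxn1 and 10365260 for Txnrd1. They are 10495763 for Gclm, 10587266 for Gclc, 10498024 for Slc7a11, 10571274 for Gsr and 10581538 for Nqo1.

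RNA came from the brains of C57/Bl6 mice at postnatal day 9 and was hybridised to 40 Affymetrix arrays in 8 groups of 5. The groups asked how IDR-1018 (IDR), an immunomodulatory peptide, acts in a neonatal brain injury model in which lipopolysaccharide (LPS), a bacterial cell wall component, precedes hypoxia-ischaemia (HI). In the LPS/HI + IDR groups the peptide was given 4 h before LPS and HI followed LPS by 14 h. The left hemisphere (injured) and the right hemisphere (uninjured) were taken 6 h after HI and form a group each. The LPS/HI injured and uninjured groups had vehicle in place of the peptide at the same times. In the LPS + IDR group the peptide preceded LPS by 4 h, and brains were taken 6 h after LPS. The LPS group was taken 6 h after LPS, and its label names no vehicle dose before LPS. The IDR group and the Vehicle group had the peptide or vehicle alone and were taken after 10 h. The LPS + IDR, LPS, IDR and Vehicle groups are labelled as uninjured brain, so a comparison of a hemisphere with one of them sets an LPS/HI hemisphere beside tissue not labelled as a single hemisphere. No group combines HI with a sham LPS dose, so HI alone is not represented. The labels do not say that arrays are separate pups, and give no sex, so p-values measure the spread between these samples only.

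NRF2 is held in the cytoplasm by KEAP1, which delivers it to a ubiquitin ligase. Oxidants and electrophiles modify KEAP1, and NRF2 then enters the nucleus, pairs with small MAF proteins and binds antioxidant response elements. BACH1 competes for such elements, above all at Hmox1. Hmox1, the inducible haem oxygenase, degrades haem to biliverdin, carbon monoxide and iron, and in brain it is known as a stress gene of glia and macrophages. Srxn1 reactivates overoxidised peroxiredoxins, and Txnrd1 is the cytosolic thioredoxin reductase. Gclm and Gclc are the modifier and catalytic subunits of the enzyme that starts glutathione synthesis. Slc7a11 is the cystine-glutamate exchanger that brings in the cystine for it, Gsr recycles oxidised glutathione, and Nqo1 is a quinone reductase.

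RefSeq promoter windows of build GRCm38.p6, each from 250 bases before a transcription start to 50 bases after it, could be matched to 6 of the 9 genes. Hmox1, Gclc and Gsr are the members without one here. The 4 windows printed below belong to the regulator itself, to the antioxidant enzyme called beside it, to the transporter that had the lowest values after LPS, and to a glutathione gene that did not pass the test. Capitals mark matches to any of 4 motifs searched on both strands: the antioxidant response element core in its C form, TGACNNNGC, and its G form, TGAGNNNGC, the AP-1 site TGANTCA, and TGATGNAA, a form of the amino acid response element that ATF4 binds. A match on the strand opposite to the gene appears as its reverse complement. The Slc7a11 window belongs to a start inside the annotated span of the gene.
Nfe2l2, chr2:75704614-75704913, minus strand: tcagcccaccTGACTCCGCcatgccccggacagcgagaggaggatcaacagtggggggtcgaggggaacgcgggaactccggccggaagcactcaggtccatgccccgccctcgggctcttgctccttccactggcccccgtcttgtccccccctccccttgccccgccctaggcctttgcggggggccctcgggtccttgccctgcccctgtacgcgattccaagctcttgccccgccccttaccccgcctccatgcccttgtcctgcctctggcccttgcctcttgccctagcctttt
Srxn1, chr2:152105274-152105573, plus strand: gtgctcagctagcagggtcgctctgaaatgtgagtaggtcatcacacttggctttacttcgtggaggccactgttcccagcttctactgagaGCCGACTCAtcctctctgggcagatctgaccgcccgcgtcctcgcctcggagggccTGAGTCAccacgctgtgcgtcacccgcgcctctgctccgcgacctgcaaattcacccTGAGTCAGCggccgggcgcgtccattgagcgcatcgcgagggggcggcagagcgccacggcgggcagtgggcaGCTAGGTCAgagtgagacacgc
Slc7a11, chr3:50443564-50443863, minus strand: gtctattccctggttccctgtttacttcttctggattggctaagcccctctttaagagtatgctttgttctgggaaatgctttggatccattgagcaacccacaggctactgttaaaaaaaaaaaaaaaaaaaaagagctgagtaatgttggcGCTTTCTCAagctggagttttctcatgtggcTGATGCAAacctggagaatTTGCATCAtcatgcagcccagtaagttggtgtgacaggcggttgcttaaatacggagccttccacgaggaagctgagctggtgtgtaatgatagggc
Gclm, chr3:122245307-122245606, plus strand: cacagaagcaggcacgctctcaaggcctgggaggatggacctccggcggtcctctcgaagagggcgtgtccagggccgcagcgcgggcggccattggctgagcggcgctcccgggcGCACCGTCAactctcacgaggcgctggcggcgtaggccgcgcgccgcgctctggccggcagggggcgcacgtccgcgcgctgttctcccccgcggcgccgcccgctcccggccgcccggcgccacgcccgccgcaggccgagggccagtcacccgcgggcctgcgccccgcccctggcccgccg

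Srxn1 had 3 antioxidant response element matches, beginning at -158, -45 and 29 relative to the start. Its match at -45, TGAGTCAGC, also contains an AP-1 match, and a separate AP-1 match lay at -102. Slc7a11 had a G-form match at -97 and a pair of TGATGNAA matches at -66 and -47, on opposite strands. Gclm had a C-form match at -134 and Nfe2l2 one at -240. Of 3 Txnrd1 windows, 1 had a C-form match at -92, and the Nqo1 window had no match to any of the 4 motifs. An antioxidant response element core of either form occurred in 27.8% of all 32851 RefSeq windows of this length, TGANTCA in 7.81% and TGATGNAA in 3.97%. A window with 2 or more TGATGNAA matches was found 23 times, in 0.07%. These matches are letters in the windows and are not binding sites measured here.

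The deposited values are log2 signals after RMA, which quantile normalises all arrays to each other. Array medians lay between 6.99 and 7.13 and correlations between arrays over all genes between 0.987 and 0.998. As a check of the tissue, 10 neuron markers averaged 11.40 to 11.72 and 10 astrocyte markers 10.11 to 10.55 on every array. Sex-linked transcripts were unevenly spread. Arrays with Xist and no Y-linked signal numbered 3 of 5 in LPS/HI + IDR injured, 3 in LPS/HI + IDR uninjured, 3 in LPS/HI injured, 4 in LPS/HI uninjured, 2 in LPS + IDR, 5 in LPS, 1 in IDR and 2 in Vehicle. Replicate 3 of LPS/HI injured stood apart, with both Xist at 11.23 and Y-linked signal at 8.01, whereas replicate 3 of LPS/HI uninjured had Xist alone. Comparisons were also computed without that array, and the calls, group orders and correlations that moved are given.

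Between the hemispheres of LPS/HI brains, Nfe2l2, Hmox1 and Srxn1 were higher on the injured side and the other 6 genes did not pass the test. The change was 2.29-fold for Hmox1, 1.46-fold for Nfe2l2 and 1.26-fold for Srxn1 without the peptide. A gene was called at a limma adjusted p under 0.05 over all 19937 genes. By that rule 3 of the 9 were called, all 3 of them higher, while 2.99% of all genes were called and 2.18% were called higher. In 3 of the 9 every injured array lay above every uninjured array, and 5.03% of all genes had groups that did not overlap in either direction. The median log2 fold change of the 9 genes was 0.13, beside 0.01 for all genes. In whole tissue, a change in how many cells of a type are present and a change in RNA per cell cannot be told apart.

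Nfe2l2, the regulator, read 9.72, 9.40, 9.47, 9.57 and 9.22 (log2 signal, replicates 1 to 5) in LPS/HI injured arrays, against 9.10, 8.91, 8.92, 8.98 and 8.74 in LPS/HI uninjured arrays. The lowest injured array lay above the highest uninjured array. Its log2 fold change was 0.55 ± 0.09 (SE, n = 5 each, limma adjusted p = 0.00648), and 0.55 with adjusted p = 0.0135 without replicate 3 of the injured group. With the peptide, Nfe2l2 read 9.66, 9.95, 9.36, 9.26 and 9.63 in LPS/HI + IDR injured arrays, against 9.15, 8.95, 8.80, 8.90 and 8.84 in LPS/HI + IDR uninjured arrays. Again the groups did not overlap, and replicate 2 of the injured group was the highest Nfe2l2 value of all 40 arrays. On the log2 scale the difference was 0.64 ± 0.12 (limma adjusted p = 0.0123).

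Hmox1 read 8.74, 8.36, 8.30, 8.54 and 8.86 in LPS/HI injured arrays, against 7.23, 7.22, 7.62, 7.14 and 7.61 in LPS/HI uninjured arrays. A gap of more than the whole range of either group separated them. The log2 fold change was 1.19 ± 0.13 (SE, n = 5 each, limma adjusted p = 0.00019), and 1.26 with adjusted p = 0.000304 without replicate 3 of the injured group. With the peptide, Hmox1 read 8.55, 8.65, 8.54, 8.74 and 8.48 in LPS/HI + IDR injured arrays, against 7.21, 7.15, 7.50, 7.40 and 7.52 in LPS/HI + IDR uninjured arrays. The injured arrays lay closer together here, with an SD of 0.10 beside 0.24 without peptide. On the log2 scale the difference was 1.24 ± 0.08 (limma adjusted p = 6.92e-06).

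Srxn1, the sulfiredoxin gene, read 9.44, 9.25, 9.36, 9.39 and 9.45 in LPS/HI injured arrays, against 9.13, 8.99, 8.89, 9.05 and 9.18 in LPS/HI uninjured arrays. These groups did not overlap, but the gap between them was small. The log2 fold change was 0.33 ± 0.07 (SE, n = 5 each, limma adjusted p = 0.0230). The adjusted p was 0.0343 without replicate 3 of the injured group, and between 0.0511 and 0.0667 without replicate 1, 4 or 5 of the injured group or replicate 2 or 4 of the uninjured group, each left out alone. With the peptide, Srxn1 read 9.38, 9.43, 9.27, 9.28 and 9.61 in LPS/HI + IDR injured arrays, against 9.13, 9.35, 8.94, 8.77 and 9.14 in LPS/HI + IDR uninjured arrays. Uninjured replicate 2 lay within the injured range, so the groups overlapped. Its log2 fold change had the same size, 0.33 ± 0.10, and did not pass the test (limma adjusted p = 0.122), nor with any 1 array left out. Taken by replicate number, injured minus uninjured was 0.25, 0.08, 0.34, 0.51 and 0.47, above 0 in 5 of 5. With the number as a block it was called (limma adjusted p = 0.0331), as it was with all 8 groups in the fit (0.0031), with Xist as a covariate (0.021) and with the ribosomal protein level as one (0.026). Same-numbered hemispheres of these groups correlated above 0.1 in 3 of 5 pairs, and their sex-linked signal matched in 5 of 5.

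**Figure D1:**
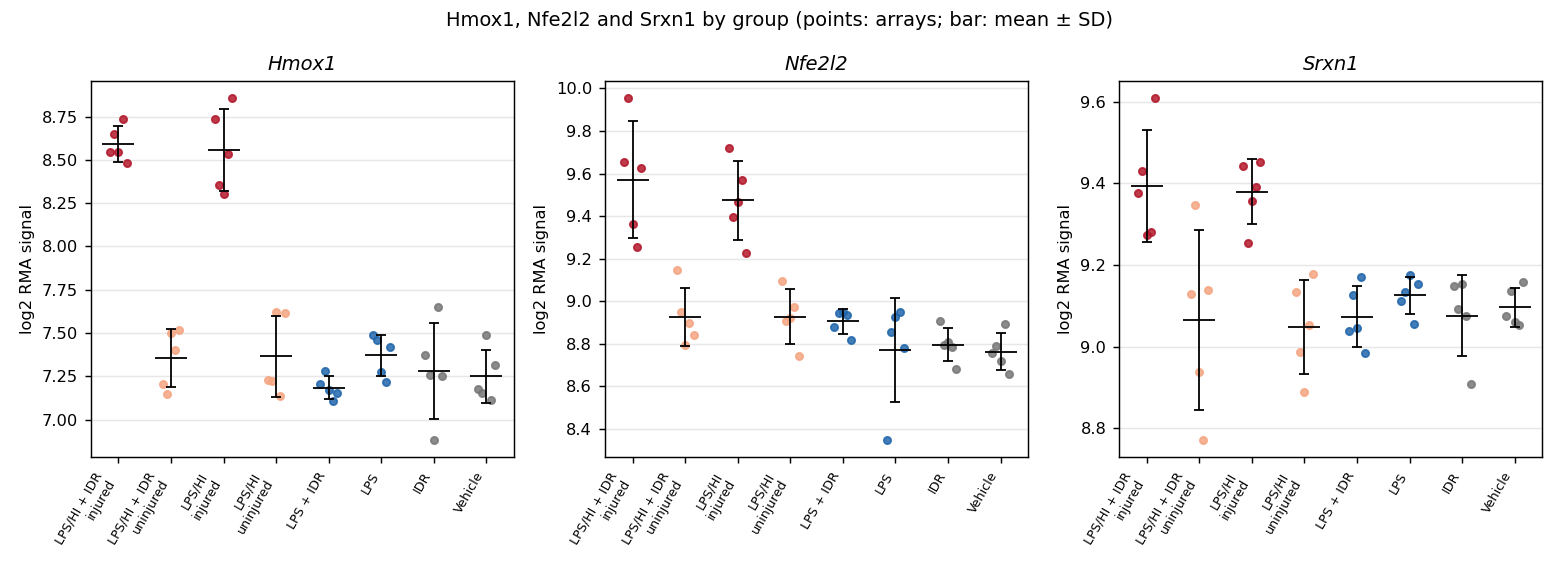
Log2 RMA signal of Hmox1, Nfe2l2 and Srxn1 (vertical axes) in the 8 groups (horizontal axis). Each point is 1 array, and the bar and whiskers are the mean and SD of 5 arrays. In all 3 genes both injured groups have the highest means, and the arrays of the next group by mean lie below all LPS/HI injured arrays. For Srxn1, 1 array of LPS/HI + IDR uninjured, at 9.35, lies within both injured ranges.

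Hemispheres of the same replicate number moved together in the groups without peptide, as given with the processing. Taken by number, injured minus uninjured for Hmox1 was 1.51, 1.13, 0.68, 1.40 and 1.24 on the log2 scale. For Nfe2l2 the differences were 0.62, 0.49, 0.55, 0.60 and 0.48, and for Srxn1 they were 0.31, 0.27, 0.47, 0.34 and 0.27. All 15 differences were above 0, which any pairing would give, since the groups of these genes did not overlap. Of the 6 genes that were not called, Txnrd1 and Slc7a11 were also higher in 5 of 5, Gclm in 4, Gclc and Nqo1 in 3 and Gsr in 2. With the replicate number as a block the same 3 genes were called, while the count over all genes was 2032 in place of 596.

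With the peptide, 2 of the 9 genes were called, both higher (Hmox1 and Nfe2l2), beside 2.5% of all genes called and 1.8% called higher. The same 2 had groups that did not overlap, beside 5.12% of all genes. All 9 log2 fold changes were above 0, with a median of 0.13 beside -0.00 for all genes. The interaction, which asks whether the injured-minus-uninjured difference itself changed with the peptide, was 0.04 for Hmox1, with a 95% interval from -0.29 to 0.38. It was 0.10 for Nfe2l2, from -0.23 to 0.42, and -0.00 for Srxn1, from -0.27 to 0.26. Without replicate 3 of LPS/HI injured the 3 values were -0.02, 0.10 and -0.01. No member was called in that test (limma adjusted p = 1.00 for each), and 0% of all genes were called, with 361 genes at an unadjusted p under 0.05. These intervals do not show that the injury difference was alike with and without the peptide.

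**Figure D2:**
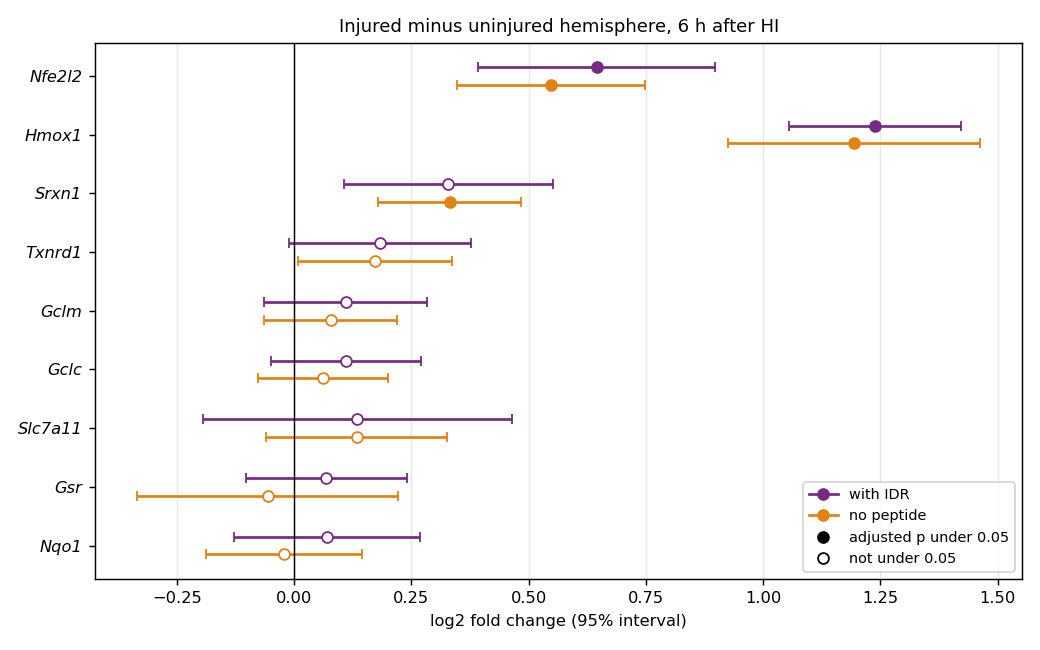
Log2 fold change, injured minus uninjured hemisphere, with its 95% interval (horizontal axis) for the 9 genes (vertical axis), with IDR above and without peptide below in each pair. Filled points passed an adjusted p of 0.05. Hmox1 lies at 1.24 and 1.19 and Nfe2l2 at 0.64 and 0.55, Srxn1 is filled only without peptide, and the other 6 genes lie between -0.06 and 0.18.

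Txnrd1, the thioredoxin reductase gene, read 9.33, 9.10, 9.08, 9.29 and 9.04 in LPS/HI injured arrays, against 9.09, 9.09, 8.92, 8.98 and 8.89 in LPS/HI uninjured arrays. The groups overlapped, since injured replicates 3 and 5 lay below the highest uninjured arrays. Its log2 fold change was 0.17 ± 0.08 without peptide and 0.18 ± 0.09 with it (limma adjusted p = 0.30 and 0.39). The glutathione genes showed smaller values. Gclm differed by 0.11 with the peptide and 0.08 without, and Gclc by 0.11 and 0.06. Slc7a11 differed by 0.13 in both arms, with a wider 95% interval with the peptide (-0.19 to 0.46) than without (-0.06 to 0.33). Gsr, which recycles glutathione, was at 0.07 with the peptide and -0.06 without, and Nqo1 at 0.07 and -0.02. Over these 6 genes the 95% intervals without peptide ran from -0.33 to 0.34, so a difference larger than 0.34 on the log2 scale lay outside all of them. No adjusted p among the 6 was under 0.30 in these fits, which do not pair the hemispheres. With the replicate number as a block none of the 6 was called. Over all alternatives without peptide, the lowest limma adjusted p was 0.0466 for Txnrd1, with the ribosomal protein level as a covariate. For Slc7a11 the lowest was 0.0584.

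Some single arrays stood out among these genes. Gsr in the LPS/HI arrays without peptide was highest in replicate 1 on both sides, at 9.84 in the injured and 9.97 in the uninjured hemisphere. Nqo1 lay between 6.25 and 6.83 on all 40 arrays, below the lowest array median of 6.99. Only 32.4% of genes had a lower mean, and whether its probe set can show a change at this level was not tested. Gclm reached its highest value, 10.35, in replicate 2 of LPS/HI + IDR injured, the array that was also highest for Nfe2l2.

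Levels of cell type markers stood beside these differences as follows. The mean log2 level of 10 neuron markers lay between 11.44 and 11.50 in LPS/HI + IDR injured arrays, against 11.60 to 11.68 in LPS/HI + IDR uninjured arrays. Without peptide it lay between 11.40 and 11.54 in injured arrays, against 11.62 to 11.72 in uninjured arrays. Of the 10, 1 was called, Neurod6, lower by 0.77 with the peptide and 0.73 without. Of 11 microglia markers none was called higher, and 1, P2ry12, was called lower without peptide (log2 fold change -0.45). The microglia mean overlapped, at 8.04 to 8.33 in LPS/HI injured arrays against 8.07 to 8.42 in LPS/HI uninjured arrays, and at 7.96 to 8.28 against 7.85 to 8.46 with the peptide. None of 9 monocyte and macrophage markers and none of 8 neutrophil markers was called in either arm. Of 10 astrocyte markers none was called higher, and Fgfr3 was called lower without peptide (-0.44). The astrocyte mean overlapped, at 10.16 to 10.55 in LPS/HI + IDR injured arrays against 10.12 to 10.48 in LPS/HI + IDR uninjured arrays, and at 10.21 to 10.39 against 10.20 to 10.38 without peptide. Among 10 endothelial markers, Cdh5 and Pecam1 were called higher with the peptide (0.36 and 0.46) and Pecam1 without (0.39). The endothelial mean overlapped, at 8.42 to 8.76 in LPS/HI + IDR injured arrays against 8.40 to 8.63 in LPS/HI + IDR uninjured arrays. Without peptide it lay at 8.42 to 8.66 in injured arrays against 8.38 to 8.62 in uninjured arrays. Without peptide, Pdgfra of the oligodendrocyte lineage (-0.35) and Slc6a13 of the meninges (-0.52) were called lower, and no marker of these 2 lists was called with the peptide. The part of any of these in the differences of the 9 genes was not tested.

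Around NRF2, its regulators moved in part. Of 11 measured, 2 were called higher and none lower in each arm, beside 1.8% of all genes called higher with the peptide and 2.18% without. Bach1, the competitor repressor, had a log2 fold change of 0.34 with the peptide and 0.39 without. Maff, a small MAF partner, had 0.54 and 0.50. The median over the 11 regulators was 0.08 and 0.07, beside -0.00 and 0.01 for all genes. Neither Keap1 nor Cul3 was among those called.

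Over 5 lists of other antioxidant genes, 4 of 56 (7.14%) were called with the peptide, all higher, beside 2.5% of all genes. Without peptide 2 of 56 (3.57%) were called, both higher, beside 2.99% of all genes. Of 14 glutathione genes measured, 1 was called higher in each arm, Chac1, which degrades glutathione (0.50 with the peptide and 0.45 without). Of 14 thioredoxin, peroxiredoxin and dismutase genes, Txnip, an inhibitor of thioredoxin, was called higher in both arms (0.49 and 0.51) and Sesn2, a stress-induced sestrin, with the peptide (0.37). None of 6 NADPH supply genes and none of 10 haem and iron genes was called in either arm. Of 12 NRF2 detoxification genes and exporters, Akr1b8, an aldo-keto reductase, was called higher with the peptide (0.47) and none without. Akr1b8 had low signal, with means of 5.65 in LPS/HI + IDR injured and 5.18 in LPS/HI + IDR uninjured arrays. Among 14 genes of the ATF4 list, which shares Chac1 and Sesn2 with the lists above, 5 were called higher with the peptide and 4 without, and none lower, beside 1.8% and 2.18% of all genes called higher. They included Atf3 (1.94 and 1.93), Atf4 (0.50 and 0.58) and Ddit3 (0.39 and 0.43), transcription factors of the integrated stress response. The median of the ATF4 list was 0.18 and 0.15.

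Set against groups without HI, the injured hemisphere gave the same 3 members. Against Vehicle, LPS/HI injured arrays had 3 of 9 called, all higher, beside 8.34% of all genes called and 4.45% called higher. The same 3 were the members with no overlap, beside 8.74% of all genes. Hmox1 read 7.18, 7.15, 7.49, 7.11 and 7.31 in Vehicle arrays, below every LPS/HI injured array listed above. Its log2 fold change was 1.31 ± 0.11 (SE, n = 5 each, limma adjusted p = 4.57e-06). For Nfe2l2 it was 0.71 ± 0.09 (adjusted p = 0.000146) and for Srxn1 0.28 ± 0.06 (adjusted p = 0.0089). Without replicate 3 of the injured group the values were 1.37, 0.71 and 0.29 and all 3 were called.

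LPS/HI + IDR injured arrays against IDR arrays also had 3 of 9 called, all higher, beside 5.87% of all genes called and 3.52% called higher. The same 3 did not overlap, beside 7.58% of all genes. The log2 fold change was 1.31 ± 0.11 for Hmox1 (limma adjusted p = 4.96e-05), 0.78 ± 0.11 for Nfe2l2 (adjusted p = 0.00144) and 0.32 ± 0.08 for Srxn1 (adjusted p = 0.0272). The Srxn1 call was lost with the replicate number as a block (limma adjusted p = 0.127) and with Xist as a covariate (0.0873). The block has little basis here, since same-numbered arrays of these groups correlated at -0.43 to 0.22. The call was also lost without any 1 of 6 arrays (0.0515 to 0.0613). Those arrays were replicates 1, 2 and 5 of LPS/HI + IDR injured and replicates 2, 4 and 5 of IDR. The other 6 genes lay between 0.01 and 0.11 here and between -0.06 and 0.12 against Vehicle.

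Markers of several cell types moved with these comparisons. Of 11 microglia markers, C1qa, C1qb, C1qc and Aif1 were called higher in both, and P2ry12 lower. Of 9 monocyte and macrophage markers, Fcgr1 and Ms4a6c were called higher against IDR (0.64 and 1.17) and against Vehicle (0.71 and 1.19), and F13a1 and Ms4a7 against Vehicle as well (0.26 each). The mean of that list lay at 6.45 to 6.67 in LPS/HI + IDR injured arrays against 6.22 to 6.37 in IDR arrays, and at 6.52 to 6.72 in LPS/HI injured arrays against 6.29 to 6.36 in Vehicle arrays. In the uninjured hemispheres it lay at 6.44 to 6.63 with the peptide and 6.45 to 6.71 without, where Fcgr1 and Ms4a6c were also called higher against IDR (0.58 and 1.02) and Vehicle (0.59 and 1.15). Of 10 astrocyte markers, Gfap was called higher in both injured comparisons (0.48 and 0.63), and Aldoc (0.22) and Gjb6 (0.33) against Vehicle. Neurod6 of the neuron list was called lower in both (-0.75 and -0.86), and Tubb3 against Vehicle (-0.47). Of 10 endothelial markers, Cdh5 and Pecam1 were called higher in both, at 0.26 to 0.38, and no other was called. The endothelial mean overlapped, at 8.42 to 8.76 in LPS/HI + IDR injured arrays against 8.41 to 8.62 in IDR arrays. Without peptide it lay at 8.42 to 8.66 in LPS/HI injured arrays against 8.47 to 8.57 in Vehicle arrays. Of 8 neutrophil markers, S100a8 was called higher against IDR (0.29, at low means of 5.16 and 4.87) and none against Vehicle. In the oligodendrocyte lineage list Pdgfra was called lower in both (-0.37 and -0.32). Against Vehicle, Cspg4 of that list was called lower (-0.22) and Mbp higher (0.44). Kcnj13 of the choroid plexus list (-0.52) and Slc6a13 of the meninges (-0.54) were called lower against Vehicle. Foxc1 of the meninges list was called higher against IDR (0.31). The part of these in the member values was not tested.

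Against the same groups, genes around NRF2 were called in the injured hemisphere as follows. Of the 11 NRF2 regulators, 3 were called higher in LPS/HI + IDR injured against IDR, beside 3.52% of all genes: Maff (log2 fold change 0.60), Bach1 (0.28) and Sqstm1 (0.25), which encodes p62, a KEAP1-binding adaptor. In LPS/HI injured against Vehicle, 2 were called higher, Bach1 (0.33) and Sqstm1 (0.24), beside 4.45% of all genes. Over the 5 antioxidant lists, 6 of 56 were called higher and 1 lower against IDR, 12.5% beside 5.87% of all genes. Against Vehicle 4 were called higher and 5 lower, 16.1% beside 8.34% of all genes. Txnip was higher by 0.54 in LPS/HI + IDR injured and 0.60 in LPS/HI injured, and Sesn2 by 0.34 and 0.40. Chac1 was higher by 0.53 and 0.54. Mgst1, a microsomal glutathione transferase gene (0.41), Sod3, the extracellular superoxide dismutase gene (0.33), and Akr1b8 (0.37) were called higher against IDR, and Abcc4 (0.34), an exporter gene, against Vehicle. Of the 14 ATF4 list genes, 6 were called higher in each comparison, led by Atf3 (1.89 against IDR and 1.77 against Vehicle). Against Vehicle 1 of that list, Vldlr, a lipoprotein receptor gene, was called lower (-0.26).

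The antioxidant genes called lower were these. The mitochondrial thioredoxin reductase gene Txnrd2 fell by 0.33, the peroxiredoxin gene Prdx4 fell by 0.25 and Idh1, an NADPH source, fell by 0.43 on the log2 scale in LPS/HI injured against Vehicle. The carbonyl reductase gene Cbr1 fell by 0.23 in the same comparison. Slc40a1 fell by 0.63 in LPS/HI + IDR injured against IDR and by 0.64 in LPS/HI injured against Vehicle, and by 0.44 in LPS/HI uninjured against Vehicle.

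For the uninjured hemisphere, no member passed the test against a group without HI. LPS/HI uninjured against Vehicle had 0 of 9 called, beside 0.436% of all genes, and the log2 fold changes ran from -0.13 to 0.17. Nfe2l2 held the highest of them, 0.17 ± 0.07, and was the 1 member with an unadjusted p under 0.05 (limma adjusted p = 0.723). LPS/HI + IDR uninjured against IDR had 0 of 9 called, beside 0.201% of all genes, with no member at an unadjusted p under 0.05. LPS/HI uninjured against LPS had 0 of 9 called, beside 0.135%, and 1 member at an unadjusted p under 0.05. That member was Slc7a11, at 0.44 ± 0.13 (limma adjusted p = 0.478).

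Ranked by group mean, Hmox1, Nfe2l2 and Srxn1 shared an order at the top: LPS/HI + IDR injured, then LPS/HI injured, with overlapping arrays. Below came a gap without overlap to the next group by mean, of 1.19 for Hmox1, 0.55 for Nfe2l2 and 0.25 for Srxn1. Below that every neighbour in the order overlapped with the next. For Srxn1, replicate 2 of LPS/HI + IDR uninjured, a group further down, read 9.35 and lay within both injured ranges. For the other 6 genes, every neighbouring pair of groups in the order overlapped.

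Without replicate 3 of LPS/HI injured, 3.22% of all genes were called between hemispheres without peptide and 8.99% against Vehicle, and Hmox1, Nfe2l2 and Srxn1 were the members called in both. Of 53 calls of genes in the pathway and marker lists in these comparisons, 48 remained, 5 were lost and 6 others were gained. Calls of Chac1 and Sesn2 were counted once for each list that holds them. Lost were P2ry12 and Pdgfra between hemispheres (limma adjusted p = 0.069 and 0.0631), and Aif1, F13a1 and Cdh5 against Vehicle (0.0647, 0.0571 and 0.0548). Gained were Idh1 between hemispheres (-0.30), and Maff (0.46), Cx3cr1 (0.27), Trem2 (0.24), Mag (0.78) and Mog (0.78) against Vehicle. For Hmox1 the highest group mean was then that of LPS/HI injured, 8.62, above 8.59 in LPS/HI + IDR injured, with a gap of 1.22 below. Nfe2l2 and Srxn1 kept both injured groups in the same order, with gaps of 0.55 and 0.26. The injured neuron mean lay between 11.40 and 11.49 and the microglia mean between 8.09 and 8.33.

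After LPS alone, no member passed the test, and Slc7a11 had the largest difference of the 9. LPS against Vehicle had 0 of 9 called, beside 0.833% of all genes, and 1 member at an unadjusted p under 0.05, beside 1240 genes. Slc7a11 read 9.32, 9.79, 9.94, 10.00 and 9.53 in LPS arrays, against 10.38, 10.40, 10.30, 10.31 and 10.00 in Vehicle arrays. LPS replicates 1 and 5 were the lowest, and Vehicle replicate 5 lay just inside the LPS range, so the groups overlapped. The log2 fold change was -0.56 ± 0.12 (SE, n = 5 each, 95% interval from -0.83 to -0.30, limma adjusted p = 0.0575). The adjusted p was 0.0299 without Vehicle replicate 5, 0.0457 without LPS replicate 3 and 0.0274 without LPS replicate 4. With Xist as a covariate the log2 fold change was -0.67 and the limma adjusted p was 0.177. All 5 LPS arrays carried Xist, against 2 of 5 Vehicle arrays.

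With the peptide in both groups, the LPS difference of Slc7a11 was smaller and again not called. Slc7a11 read 10.11, 9.99, 10.04, 9.97 and 9.86 in LPS + IDR arrays, against 10.44, 10.39, 10.41, 10.37 and 9.89 in IDR arrays. Without IDR replicate 5 the groups would not have overlapped. Here the log2 fold change was -0.31 ± 0.10 (limma adjusted p = 0.213), and -0.41 with adjusted p = 0.00323 without IDR replicate 5. LPS + IDR against IDR had 0 of 9 called, beside 1.47% of all genes. The interaction of the peptide with LPS was 0.26 for Slc7a11, with a 95% interval from -0.09 to 0.61, and no member was called (limma adjusted p = 0.860 for Slc7a11), beside 0.00502% of all genes.

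**Figure D3:**
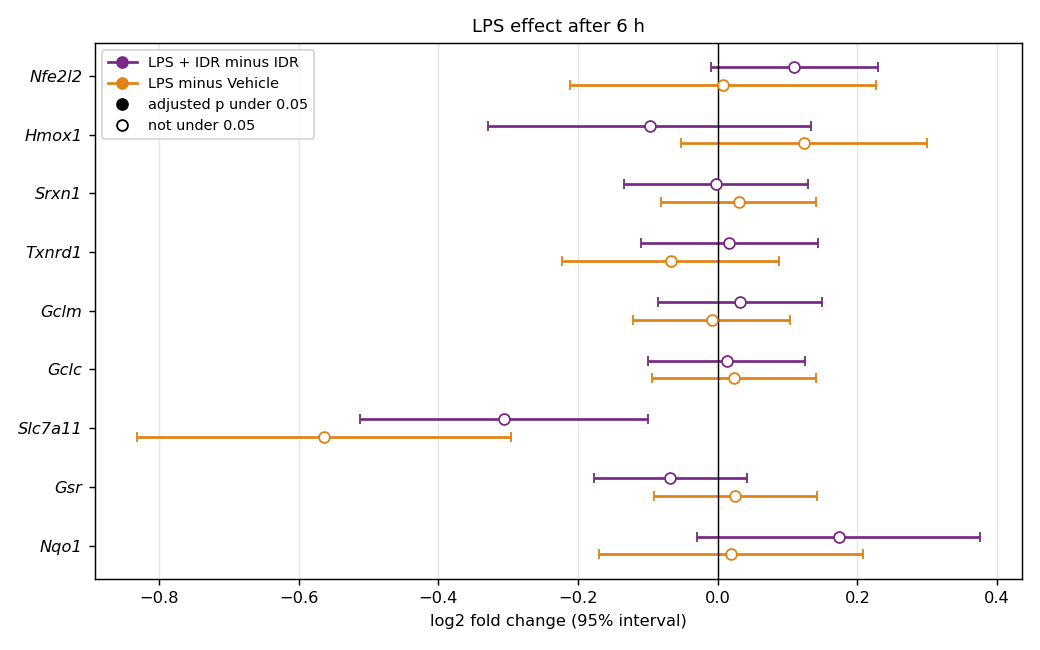
Log2 fold change of the 9 genes after LPS with its 95% interval (horizontal axis), for LPS + IDR minus IDR (upper of each pair) and LPS minus Vehicle (lower). No point is filled, since none passed an adjusted p of 0.05. Slc7a11 lies at -0.31 and -0.56 with intervals below 0, and the other 8 intervals include 0 in both comparisons.

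Hmox1 did not stand out after LPS. It read 7.49, 7.46, 7.28, 7.22 and 7.42 in LPS arrays, which overlapped the Vehicle arrays, and the log2 fold change was 0.12 ± 0.08 (limma adjusted p = 0.920). In LPS + IDR arrays it read 7.21, 7.28, 7.17, 7.11 and 7.15, within the IDR range of 6.88 to 7.65. For Nfe2l2 the LPS difference was 0.11 with the peptide in both groups and 0.01 without, and for Srxn1 -0.00 and 0.03. Nqo1, the quinone reductase gene, had a difference of 0.17 with the peptide and 0.02 without, with overlapping groups in both.

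Over the 5 lists of other antioxidant genes, 3 of 56 (5.36%) were called in LPS + IDR against IDR, beside 1.47% of all genes. In LPS against Vehicle 1 of 56 (1.79%) was called, beside 0.833% of all genes. None of the 11 NRF2 regulators and none of the 14 ATF4 list genes was called in either LPS comparison. In the haem and iron list, Slc40a1, the iron exporter ferroportin, was called lower, at -0.92 for LPS + IDR against IDR and -0.73 for LPS against Vehicle. Txnip (0.62) and the exporter gene Abcc4 (0.36) were called higher in LPS + IDR against IDR, and neither was called in LPS against Vehicle. The test of that difference called 1 gene of 19937, and it was neither of these.

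Markers of several cell types were called in the LPS comparisons. The mean of 10 endothelial markers lay at 8.18 to 8.48 in LPS + IDR arrays against 8.41 to 8.62 in IDR arrays. It lay at 8.01 to 8.44 in LPS arrays against 8.47 to 8.57 in Vehicle arrays, and Tek was called lower in both (-0.80 and -0.85). Kdr and Tie1 were called lower with the peptide (-0.63 and -0.29). The mean of 10 astrocyte markers lay at 10.32 to 10.46 in LPS + IDR arrays against 10.11 to 10.26 in IDR arrays, and at 10.29 to 10.42 in LPS arrays against 10.14 to 10.23 in Vehicle arrays. Its groups did not overlap in either comparison, and Gjb6 (0.83 and 0.62) and Fgfr3 (0.39 and 0.51) were called higher in both. The mean of 9 monocyte and macrophage markers lay at 6.54 to 6.77 in LPS + IDR arrays against 6.22 to 6.37 in IDR arrays, and at 6.48 to 6.61 in LPS arrays against 6.29 to 6.36 in Vehicle arrays. Ms4a6c was called higher in both (1.34 and 0.98), Cd163 with the peptide only (0.38), and Fcgr1 (0.41) and Lyve1 (0.57) without it only. In the microglia list C1qb was called higher (0.45 and 0.48) and Gpr34 lower (-0.56 and -0.52) in both. P2ry12 (-0.47) and Siglech (-0.36) were called lower with the peptide only, and C1qa (0.44) higher without it only. Clic6 of the choroid plexus list was called higher with the peptide only (0.33). No neuron or neutrophil marker was called in either. The part of these in the Slc7a11 values was not tested.

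**Figure D4:**
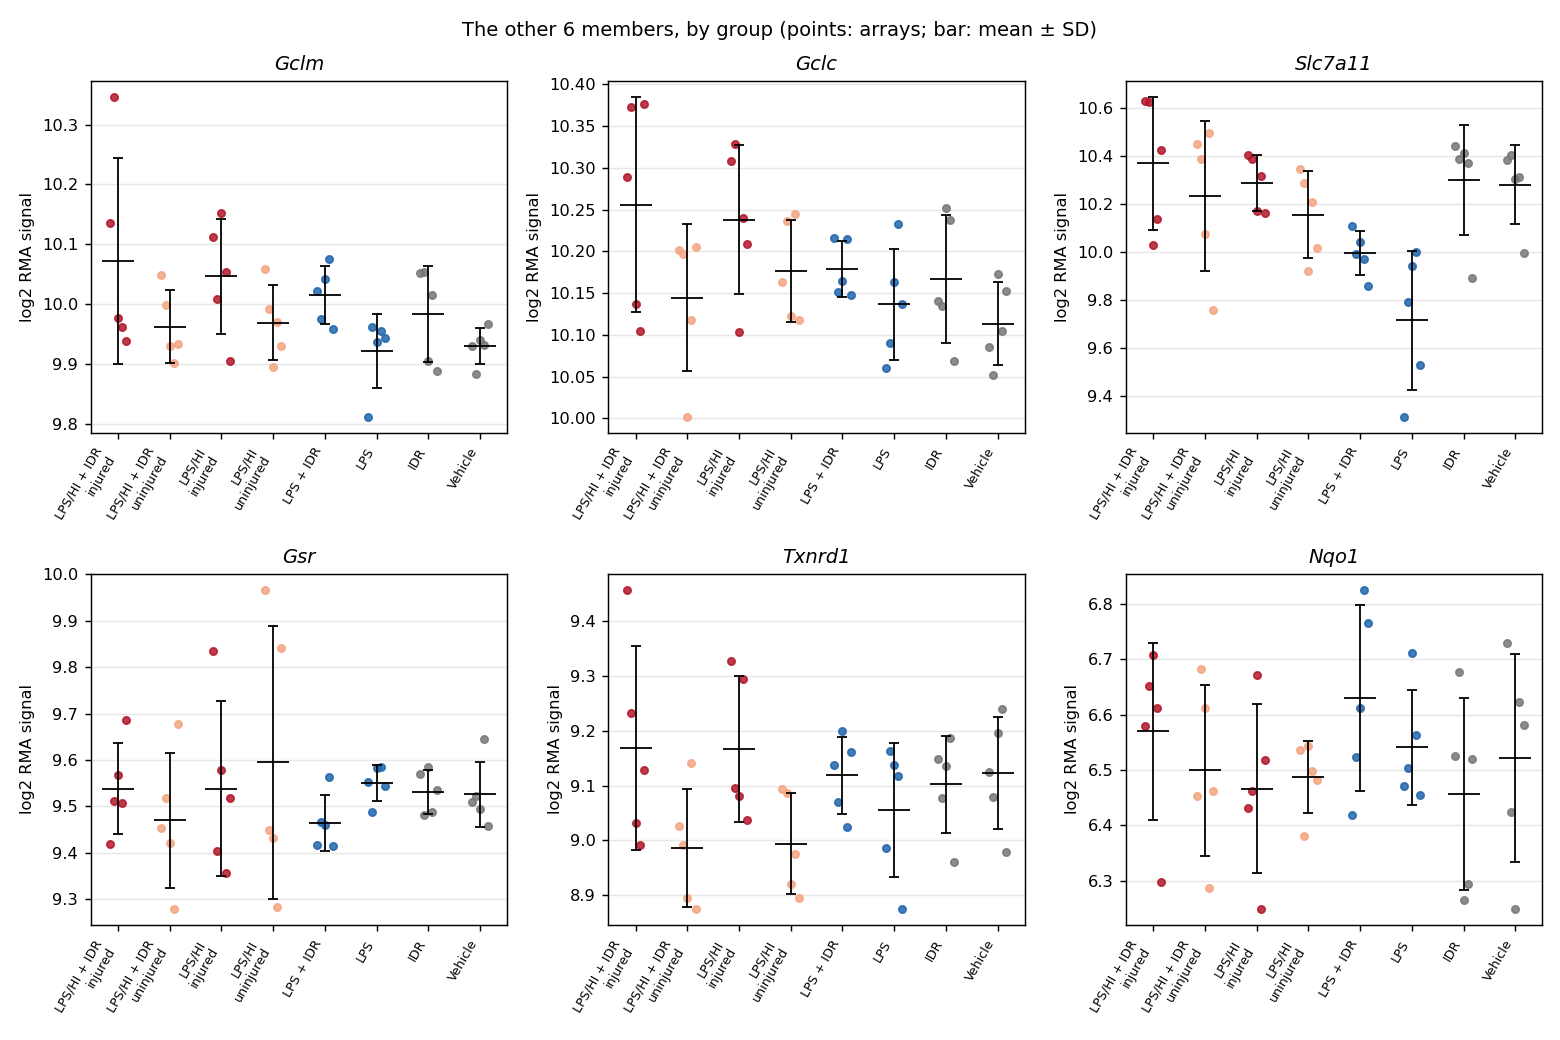
Log2 RMA signal of Gclm, Gclc, Slc7a11, Gsr, Txnrd1 and Nqo1 (vertical axes) in the 8 groups (horizontal axis). Each point is 1 array, and the bar and whiskers are the mean and SD of 5 arrays. Slc7a11 is lowest in the LPS group, with a mean of 9.72, and in all 6 genes the groups that neighbour each other in order of mean overlap.

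For the peptide itself, no member passed the test. IDR against Vehicle had 0 of 9 called and 0% of all genes, with 0 members and 321 genes at an unadjusted p under 0.05. All 9 log2 fold changes lay between -0.07 and 0.05 (limma adjusted p = 1.00 for each), and the 95% intervals ran from -0.28 to 0.29. LPS + IDR against LPS had 0 of 9 called and 0% of all genes, with 2674 genes at an unadjusted p under 0.05. The 2 members among these were Slc7a11, at 0.28 ± 0.11 (adjusted p = 0.340), and Hmox1, at -0.19 ± 0.06 (adjusted p = 0.326). These comparisons share their groups with those above, and Xist was high on 2 of 5 LPS + IDR arrays and 5 of 5 LPS arrays.

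In the LPS/HI brains, the peptide comparison again called no member. LPS/HI + IDR injured against LPS/HI injured had 0 of 9 called and 0% of all genes, with 277 genes and 0 members at an unadjusted p under 0.05. The 9 log2 fold changes lay between -0.00 and 0.10, and their 95% intervals ran from -0.20 to 0.37. For the uninjured hemispheres the count was also 0 of 9 and 0% of all genes, with 376 genes and 0 members at an unadjusted p under 0.05, and the intervals ran from -0.39 to 0.37. A peptide difference above 0.37 on the log2 scale lay outside all 9 intervals of the injured hemisphere, and smaller ones did not. Without replicate 3 of LPS/HI injured these intervals ran from -0.25 to 0.40, and no member was called. Hmox1 had a mean of 8.59 ± 0.10 (SD, n = 5) in LPS/HI + IDR injured arrays and 8.56 ± 0.24 in LPS/HI injured arrays.

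Within groups, several of the 9 genes moved with the overall level of ribosomal protein transcripts, a measure added after the data were seen. Averaged over 49 ribosomal protein genes, the log2 level had group means from 10.87 in LPS + IDR to 11.02 in LPS/HI injured. With group means removed, its Pearson r over the 40 arrays was -0.81 for Slc7a11, -0.72 for Txnrd1, -0.72 for Gclc and -0.66 for Nfe2l2. For Gclm it was -0.42, for Srxn1 -0.37, for Gsr 0.04, for Nqo1 0.30 and for Hmox1 0.41. LPS replicates 1 and 5, the lowest for Slc7a11, had ribosomal means of 11.07 and 11.16, and the other LPS arrays 10.87 to 10.91. Vehicle replicate 5 and IDR replicate 5, the lowest of their groups for Slc7a11, had the highest ribosomal means of their groups, 11.05 and 11.12. With this level as a covariate, Slc7a11 had a log2 fold change of -0.44 for LPS against Vehicle (limma adjusted p = 0.0263) and -0.34 for LPS + IDR against IDR (adjusted p = 0.0228). Without replicate 3 of LPS/HI injured these r moved by at most 0.11, the most for Hmox1, at 0.52. What sets this level on an array was not tested.

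**Figure D5:**
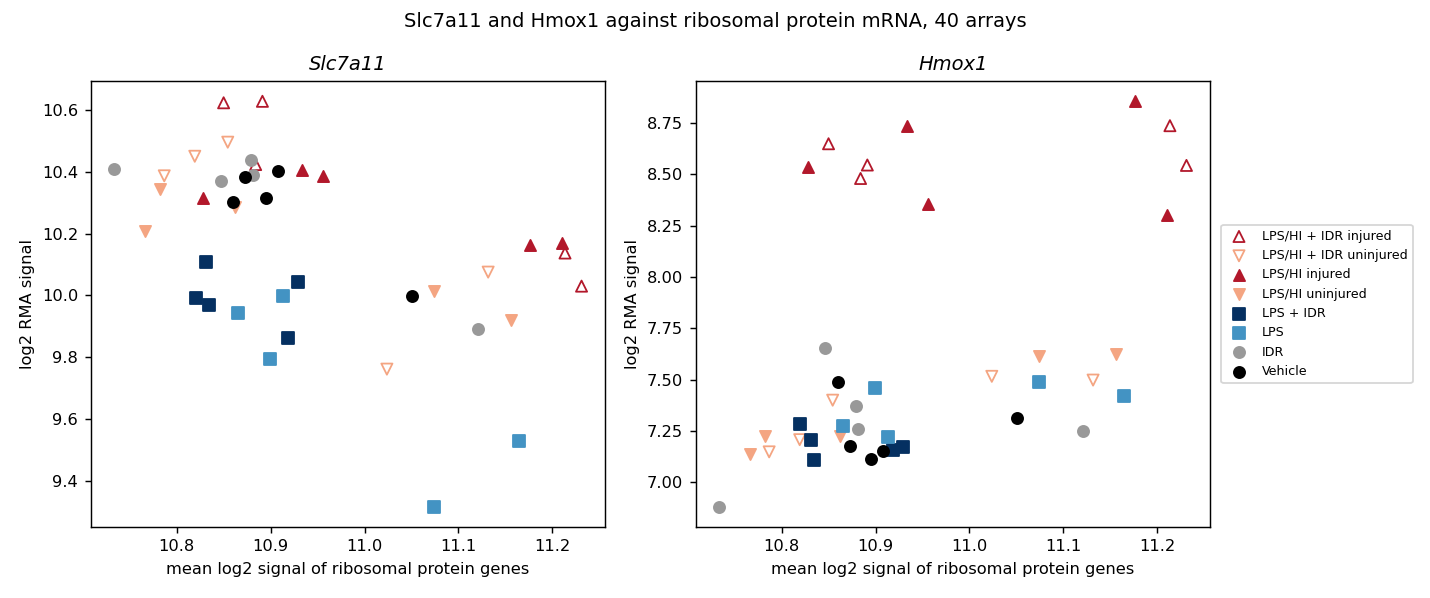
Log2 RMA signal of Slc7a11 (left) and Hmox1 (right) on the vertical axes against the average log2 signal of the 49 ribosomal genes (horizontal axes). Each point is 1 of 40 arrays, with symbol and colour giving the group. Slc7a11 falls along the axis within groups (r = -0.81 with group means removed) and the LPS arrays have the lowest group mean, though single arrays of other groups lie within their range, whereas the Hmox1 values of both injured groups lie above all others at every ribosomal level.

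Among the 9 genes, Hmox1 ran with Nfe2l2 and Srxn1 over group means only. Over the 8 group means r was 0.97 between Hmox1 and Nfe2l2 and 0.98 between Hmox1 and Srxn1. With group means removed, r over the 40 arrays was -0.31 and -0.12. Hmox1, Nfe2l2 and Srxn1 were called higher in the injured groups, so their high r over group means is not independent of those calls. Over group means, r with Hmox1 was also 0.88 for Gclc and 0.80 for Gclm. It was 0.61 for Txnrd1, 0.44 for Slc7a11, 0.23 for Gsr and -0.08 for Nqo1. Among pairs of these other genes it ran from -0.45 (Nqo1 with Gsr) to 0.96 (Gclm with Gclc). Within groups the closest pairs were Slc7a11 with Txnrd1 (0.74) and Gclm with Nfe2l2 (0.74). These arrays share their groups and the ribosomal level above.

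The genes whose values ran closest to each member over the 40 arrays were also taken. For Hmox1 they were Lgals3, encoding galectin-3 (r = 0.95), the chemokine gene Ccl3 (0.94) and Flnc, encoding filamin C (0.93), and within groups r was 0.40, 0.04 and 0.28. For Nfe2l2 they were Plek, encoding pleckstrin (0.93), Srgn, encoding serglycin (0.92), and Sat1, a polyamine acetyltransferase gene (0.91), with 0.67, 0.77 and 0.70 within groups. For Srxn1 they were Rgs16 (0.88), Trim66 (0.87) and Gadd45g (0.87). For Slc7a11 they were Fermt2 (0.85), Tek (0.82) and Chd1 (0.82). Txnrd1 ran closest to Tnpo3, Cdc16 and Srsf1 (0.86 to 0.87), Gclc to Vcl, P3h2 and Slk (0.83 to 0.87) and Gclm to Fxr1, Sdcbp and Ppp2r2a (0.78 to 0.82). Nqo1 and Gsr had the weakest likenesses, with Ndfip1 at 0.65 and Ocel1 at 0.61 as their nearest genes. Without replicate 3 of LPS/HI injured the r over arrays in this paragraph moved by at most 0.02.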

How the data were processed

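Brain RNA from 40 samples was measured on Affymetrix arrays, 5 for each of 8 groups taken from the labels. The authors deposited log2 RMA signals, 1 per probe set and array, and the submitters' processing notes name RMA and affy without a version. Since RMA quantile normalises the arrays, a change common to every gene of one array is removed. Of 34760 probe sets, 21640 carried 1 gene symbol, 1321 several and 11799 none, per the platform annotation. Where a gene had more than 1 probe set (954 genes), that of the highest mean stood for it, which left 19937 genes with no filter on signal. The array annotation names no genome build, so gene coordinates are not given.

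The test was limma (lmFit, then eBayes), version 3.58.1, under R 4.3.3 with the data.table package (version 1.17.8), using only the arrays of the groups in question, with Benjamini-Hochberg adjustment over all genes at 0.05. There were 13 comparisons of group pairs and 2 interactions. Several of them share groups. The procedure was tested on simulated data. The number of arrays limits the precision: 95% intervals of log2 fold changes had a median half-width of 0.15 to 0.18 in group comparisons and 0.22 to 0.25 in interactions. The members, gene lists and tests were chosen with earlier results of these data known, so no list is independent evidence.

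All 9 members are named in every comparison. From each other pathway list, up to 4 called genes by absolute log2 fold change were named, and for each member the 3 genes with the highest Pearson r over the arrays. Marker genes named are called ones. Some called list genes had low signal, among them Akr1b8, S100a8, Gpr34 and Ms4a7, with both group means under log2 6.

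Replicate numbers come from the labels. Deviations from the group mean were correlated between arrays of the same number. In the LPS/HI groups without peptide r lay between 0.39 and 0.65 and all 5 arrays matched their own number best, so the numbers were taken to pair these hemispheres. Sex-linked signal matched in 4 of these 5 pairs, with replicate 3 as the exception, and that pair was kept in the differences by number and the block. In the LPS/HI + IDR groups 3 of 5 exceeded 0.1 and matched their own number best. That fell short of the rule that every pair exceed 0.1, although sex-linked signal matched in 5 of 5. The block was also run between other groups. There 2 of 5 arrays matched their own number best for LPS against Vehicle, and 1 of 5 for LPS/HI + IDR injured against IDR. Alternatives tried were all 8 groups in the fit, a filter (log2 above 6 on 5 or more arrays), all probe sets, the mean of probe sets, the replicate block, Xist as a covariate and each array left out. A covariate for ribosomal protein level, and gene lists and correlations without replicate 3 of LPS/HI injured, were added after seeing the data.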

Additional observations from a re-analysis of the deposited data

Results flagged for a closer look

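Of 72 sets of 5 arrays (9 genes in 8 groups), 4 held 1 array far from the rest, judged by its gap to the nearest array as a share of the range. Chance alone gives about 1 in 20. Slc7a11 read 10.0 in Vehicle replicate 5, against 10.30 to 10.40 in the other Vehicle arrays. Slc7a11 read 9.89 in IDR replicate 5, against 10.37 to 10.44 in the other IDR arrays. Nfe2l2 read 8.35 in LPS replicate 1, against 8.78 to 8.95 in the other LPS arrays. Gclm read 9.81 in the same LPS array, against 9.94 to 9.96 in the others. In all 4 cases the array was the low one.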

How the results depend on the processing

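Hmox1 and Nfe2l2 were called in all 4 comparisons of an injured hemisphere under each of 17 alternatives. Srxn1 was called under 17 of 17 against Vehicle, 12 between hemispheres without peptide, 9 against IDR and 4 between hemispheres with the peptide. Each member had 1 probe set, so keeping all probe sets or averaging them used the same member values. The low-signal filter kept those values too. These alternatives changed only the other genes in the fit, so the counts overstate how far member values were varied. Over all 15 tests, 264 of 275 counts of called members stayed within 1.5 times and 11 did not. Most of these tests had 0 members called to begin with, and a move from 3 to 2 counted as within 1.5 times. That share therefore says little about how stable single calls were. Of 2475 fold changes of single members, 13 lost a call, 17 gained one and none of those called changed direction. For LPS against Vehicle, 1 member in place of 0, Slc7a11, was called with all 8 groups in the fit (limma adjusted p = 0.0178). The same call came with the low-signal filter (0.0483), the replicate block (0.0317) and the ribosomal covariate (0.0263). With an array left out, 0 to 1 members were called. The number does not pair LPS with Vehicle arrays: same-numbered arrays correlated at -0.21 to 0.47, short of the pairing rule. For LPS + IDR against IDR, 1 was called with the ribosomal covariate and 0 to 1 with an array left out. With the ribosomal covariate, 4 members were called between hemispheres with the peptide (adding Srxn1 and Txnrd1, at 0.38 and 0.24) and 5 for LPS/HI + IDR injured against IDR (adding Gclc and Slc7a11, at 0.16 and 0.24). Txnrd1 was called without peptide as well under that covariate (0.22, limma adjusted p = 0.0466). Left-out arrays gave 2 to 3 called members between hemispheres without peptide and against IDR, 2 to 2 with the peptide and 3 to 3 against Vehicle. The cause of these shifts was not tested.

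In the paired analysis, the block on replicate number gave limma adjusted p = 0.000349 for Hmox1, 0.000426 for Nfe2l2 and 0.00484 for Srxn1 between hemispheres without peptide. In the LPS/HI + IDR groups, where 3 of 5 same-numbered pairs correlated above 0.1, the block called Srxn1 (adjusted p = 0.0331). Counts over all genes moved with the block to 894 in place of 498 there. They moved to 498 in place of 1171 against IDR, where the number does not pair the arrays. With Xist as a covariate they were 1083 between hemispheres with the peptide, 917 in place of 1663 against Vehicle and 86 in place of 166 for LPS. With the ribosomal covariate they were 1556 in place of 596 between hemispheres without peptide, 2123 with it, and 3240 against IDR. With 5 arrays a group, member differences under about 0.15 on the log2 scale lie within the typical interval.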
